A study of Mus musculus with 4 samples.

Results

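NK-gated barcodes were the cells in 4 single-cell RNA libraries of tumour-infiltrating CD8+ T cells that carried natural killer (NK) cell transcripts and no CD3 transcript. They numbered 86 of the 37151 barcodes kept. A kept barcode had at least 1000 unique molecular identifiers (UMIs, each one counted transcript), at least 500 genes and at most 10% of UMIs from mitochondrial genes. A kept barcode entered the NK gate with at least 1 UMI of Ncr1 or Klrb1c and at least 1 UMI of Tyrobp. It also had to hold 0 UMIs of Cd3d, Cd3e and Cd3g together, at most 1 UMI of Lyz2 and at most 2 UMIs of H2-Aa and H2-Ab1 together. The gate was thus drawn on measured values. The 11 genes used by it or by the CD8 gate, Cd8a and Cd8b1 included, are only described here. CD8-gated barcodes of the same libraries, positive for CD3 and CD8 transcripts, served as the comparison (35174 in all).

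NK cells are lymphocytes of the innate immune system that kill target cells without an antigen receptor assembled by recombination. They read their targets through germline-encoded activating and inhibitory receptors, many of them the C-type lectin-like receptors of the Ly49 (Klra), NKR-P1 (Klrb1) and NKG2 (Klrc, Klrd, Klrk) families, and they kill with perforin and granzymes. In tumours they stand beside the related type 1 innate lymphoid cells (ILC1), which share many transcripts with them but are tissue-resident.

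All tumours came from the mouse bladder carcinoma line MB49. Each library was made from CD45+ CD8+ cells sorted from tumours and combined from 3 mice, and each group had 1 library. WT and KO were C57BL/6Slac mice aged 10 to 12 weeks with subcutaneous tumours. WT mice were wild type, and KO mice lacked Bfar (bifunctional apoptosis regulator) in CD8+ T cells. No source used here names the driver of that deletion. Young and Aged hosts were Rag1-/- mice aged 8 to 10 weeks, with the strain labels B6.129S7-Rag1tm0Mom/J for Young and B6.129S7-Rag1tm1Mom/J for Aged. They received CD8+ T cells into a vein on the day of tumour inoculation, from donors aged 8 weeks (Young) or 18 months (Aged). Rag1-/- mice lack T and B cells of their own and keep NK cells. Whether NK-gated barcodes of the Young and Aged libraries came from the host or were carried over with the donor cells cannot be told apart. The WT and KO libraries were made with a 3' kit and the Young and Aged libraries with an immune profiling kit. Kit, host and experiment thus differ together between the pairs, as does the counting software version in the file headers. Library totals were 68017515 to 85401443 UMIs.

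The start regions of 3 genes are shown first, because their products are a granzyme, the pore-forming protein and a chemokine of NK cells, and all 3 were higher in NK-gated than in CD8-gated barcodes in the test below. Each runs from 250 bases before to 50 bases after the start site, 5′ to 3′ on the gene's own strand (RefSeq, GRCm38.p6). Capitals mark the letters TGTGGT or ACCACA, a core bound by Runx factors, and AGGAAGT or ACTTCCT, a core bound by Ets factors. These motifs were searched on both strands, and none of the marked matches overlaps another. Gzmc lies at chr14:56234608-56234907 on the minus strand, Prf1 at chr10:61297586-61297885 on the plus strand and Xcl1 at chr1:164935473-164935772 on the minus strand.
Gzmc: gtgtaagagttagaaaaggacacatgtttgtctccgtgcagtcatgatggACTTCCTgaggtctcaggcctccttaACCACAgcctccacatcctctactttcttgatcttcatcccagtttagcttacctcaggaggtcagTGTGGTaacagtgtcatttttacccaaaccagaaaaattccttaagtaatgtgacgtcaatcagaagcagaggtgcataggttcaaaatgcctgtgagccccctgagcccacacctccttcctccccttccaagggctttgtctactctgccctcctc
Prf1: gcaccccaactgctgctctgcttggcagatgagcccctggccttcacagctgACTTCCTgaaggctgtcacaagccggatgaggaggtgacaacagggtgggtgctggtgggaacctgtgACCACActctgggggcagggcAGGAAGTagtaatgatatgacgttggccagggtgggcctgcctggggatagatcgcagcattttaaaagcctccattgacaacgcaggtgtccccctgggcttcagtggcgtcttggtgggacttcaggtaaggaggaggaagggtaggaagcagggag
Xcl1: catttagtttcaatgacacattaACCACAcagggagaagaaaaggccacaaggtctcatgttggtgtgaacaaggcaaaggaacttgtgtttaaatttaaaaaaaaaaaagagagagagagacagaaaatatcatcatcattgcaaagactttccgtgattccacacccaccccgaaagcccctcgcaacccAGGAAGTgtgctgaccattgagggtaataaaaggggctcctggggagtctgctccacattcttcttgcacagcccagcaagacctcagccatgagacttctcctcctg

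The Gzmc window held the Runx letters 108 and 174 bases before the start site and the Ets letters 200 bases before it. The Prf1 window held the Runx letters at 130 bases and the Ets letters at 109 and 198 bases, and the Xcl1 window held them at 227 and 58 bases. Of 32851 RefSeq promoters of this length, 16.8% held the Runx letters and 9.35% the Ets letters. A match describes the letters only. Runx3, an NK and CD8 T cell transcription factor, and Ets1, a factor needed for NK cell development, are described with the other transcription factors below.

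NK-gated barcodes were rare in all 4 libraries. WT held 18 of 9405 kept barcodes, or 0.191% (exact 95% binomial interval 0.113 to 0.302). KO held 10 of 8410, or 0.119% (0.0570 to 0.219), Young 49 of 10538, or 0.465% (0.344 to 0.614), and Aged 9 of 8798, or 0.102% (0.0468 to 0.194). The intervals of WT and KO overlapped, and that of Young lay above the other 3. When members with a Cd8a, Cd8b1 or Trac UMI were left out, Young stood at 0.304% (0.208 to 0.428). Its interval then overlapped that of WT (0.0659 to 0.223, from 12 barcodes). Those 12 still include barcodes with mast cell transcripts, described below. The WT interval without both kinds of barcode was not computed, so this overlap may rest on them and nothing is concluded from it. With only the barcodes with mast cell transcripts left out, WT stood at 0.138% (0.0736 to 0.236). That interval lay below the Young interval with all its members. These intervals cover counting error only, and a sort on CD8 can itself set such shares. Exactly 0 NK-gated barcodes shared their barcode sequence with a kept barcode of another library, while WT and KO shared 19 kept barcodes and Young and Aged 136.

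**Figure D1:**
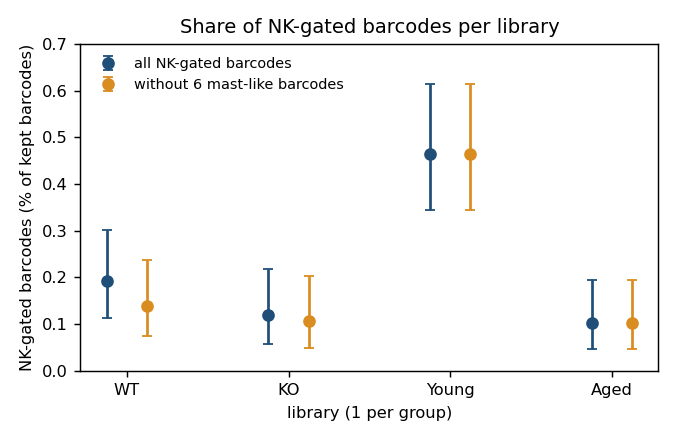
Share of kept barcodes that passed the NK gate (y axis, percent) in each library (x axis, 1 library per group), for all NK-gated barcodes and without the mast-like ones. Bars are exact 95% binomial intervals and cover counting error only. The Young share of 0.465% lies above the other 3, which run from 0.102% to 0.191%.

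The gate genes set out how these barcodes were chosen. Ncr1, the receptor NKp46, stood at 228, 289, 304 and 299 counts per 1000000 UMIs (CPM) in the summed NK-gated barcodes of WT, KO, Young and Aged. All series of 4 values below keep this order. Klrb1c, the receptor NK1.1, stood at 168, 111, 199 and 155 CPM, and 56 members held both, 20 only Ncr1 and 10 only Klrb1c. Tyrobp, the adaptor DAP12 that many activating receptors signal through, stood at 1540.1, 1131, 2709 and 2209 CPM. Although the cells were sorted for CD8, 82 of the 86 held no Cd8a or Cd8b1 UMI. At the edges of the gate, 11 members held exactly 1 UMI of Ncr1 and Klrb1c together, 1 held 1 Tyrobp UMI, 1 held 1 Lyz2 UMI and 4 held 2 UMIs of H2-Aa and H2-Ab1. Just outside it lay 7 barcodes that met every other condition but held 1 CD3 UMI. Those 7 held 0 UMIs of Cd8a, Cd8b1 and Trac. A further 65 held 2 or more CD3 UMIs, 5 failed on H2-Aa and H2-Ab1 alone, 4 on Tyrobp alone and 74 on Ncr1 and Klrb1c alone.

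Not all members fitted the label. In 6 of the 86, 5 in WT and 1 in KO, the mast cell and basophil genes Cpa3, Ms4a2, Gata2 and Mcpt8 together held 38 to 201 UMIs, against at most 4 UMIs in each of the other 80. The line between them, 10 UMIs, was set after the values were seen, and no member lay between 4 and 38. These 6 are called mast-like from here on. Each had entered with exactly 1 Ncr1 UMI and none of Klrb1c. They held 0 UMIs of Klre1, Klrd1, Xcl1, Eomes, Prf1, Gzma and Gzmc, and 28 to 97 UMIs of Fcer1g, which mast cells share with NK cells. Without them the shares were 0.138% in WT (13 barcodes) and 0.107% in KO (9 barcodes).

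The other 80 members carried NK transcripts that the gate did not read. Fcer1g, the Fc receptor gamma chain that signals for NKp46 and CD16, and Irf8, a transcription factor of NK and myeloid cells, had a UMI in 80 of 80. Xcl1, a chemokine that draws cross-presenting dendritic cells, was seen in 72, Klre1, an NK receptor of the lectin-like family, in 70, Gzmb in 70, Gzmc in 69 and Prf1, which encodes perforin, in 64. At least 1 Klra gene was seen in 58 of 80. Tbx21 (T-bet) was seen in 54 and Eomes in 46, the paired T-box factors of NK cells.

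Genes used to separate NK cells from ILC1 did not split the 80 members cleanly. Itga1 (CD49a), an integrin of ILC1 and resident cells, was seen in 34, Tmem176b in 22, Il7r in 8 and Cxcr6 in 6. Itga2 (CD49b), the integrin of circulating NK cells, was seen in 1 and Itgam (CD11b) in 2. Eomes and Itga1 were seen together in 19 members, Eomes alone in 27, Itga1 alone in 15 and neither in 19. Gzma and Il7r were never seen in the same member, with Gzma alone in 42, Il7r alone in 8 and neither in 30. The libraries differed in these genes, with Gzma in 3 WT, 1 KO, 32 Young and 6 Aged members and Il7r in 2, 5, 1 and 0. Tmem176b was seen in 8, 8, 4 and 2. Whether the absence of shared members goes beyond this split by library was not tested. Of the 42 members with Gzma, 40 also held a Klra gene. With few UMIs of most of these genes per barcode, an absent UMI does not show an absent transcript, and no test was made on members.

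T cell receptor constant genes differed among themselves in the same 80 barcodes. Trbc1 was seen in 66 and Trbc2 in 36, while Trac was seen in 24 and Trdc in 21. Trbc1 transcripts thus lay in most barcodes that held no CD3 UMI. Trbc1 reached at most 21 UMIs in 1 member with a median of 2, and Trac at most 4 UMIs with a median of 0. In non-immune barcodes, kept barcodes of tumour and stromal type that should lack the gene, Trbc1 was seen in 17.9%, 11.8%, 2.82% and 3.17%, and in NK-gated barcodes in 72.2%, 90.0%, 79.6% and 66.7%. The median depth was 22703.5 to 39786 UMIs in the former and 10150.5 to 14714 UMIs in the latter.

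**Figure D2:**
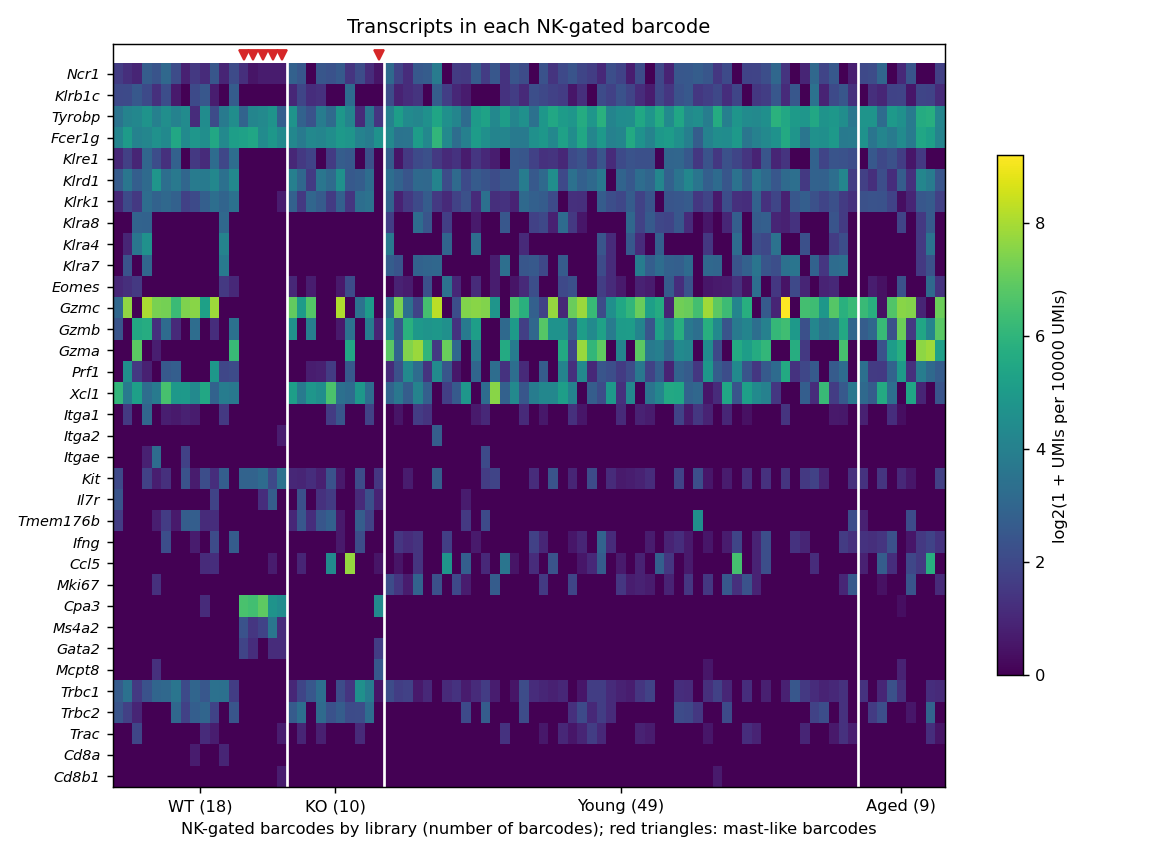
Level of each gene (rows) in each of the 86 NK-gated barcodes (columns, grouped by library), as log2 of 1 plus UMIs per 10000 UMIs. Red triangles mark the 6 mast-like barcodes, which show mast cell genes and lack Klre1, Xcl1 and Gzmc; Fcer1g is filled across all columns.

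For the comparison within libraries, UMIs were summed over the NK-gated and over the CD8-gated barcodes of each library. NK sums held 249989, 117636, 734140 and 167496 UMIs. The difference was tested with edgeR's quasi-likelihood test, with the library as a block, so that the 4 libraries are the replicates. These libraries differ in genotype, host and kit, and p-values measure the spread of the within-library difference over unlike libraries. NK-gated barcodes were deeper, with median totals of 14245, 10150.5, 14714 and 14710 UMIs against 6341, 6870, 4510 and 5768 in CD8-gated barcodes. The part of depth or doublets in the results was not tested.

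NK-gated barcodes carried more transcripts of granzyme C, lectin-like NK receptors, Fcer1g, Irf8 and Xcl1 than CD8-gated barcodes. They carried fewer of the T cell receptor signalling genes, of most interferon response genes and of the chemokine Ccl5. Of 12432 genes tested, 449 were higher (3.61%) and 702 lower (5.65%) at an adjusted p under 0.05, 9.26% in either direction. The median log2 difference over all genes was -0.23. Of the genes tested, 648 stood higher in all 4 libraries (5.21%) and 4002 in none (32.2%). Of the 449, 299 stood higher in all 4 libraries, and of the 702, 680 stood higher in none. Of the 702, 129 had no NK UMI, as had 1099 of all genes tested. A gene with no UMI in a small NK sum counts as not higher there, so these counts do not weigh the directions alike. When the 6 mast-like barcodes were left out, 356 of the 449 and 662 of the 702 were called again, among 439 higher and 871 lower in that fit. Fitted alone, the WT and KO pair gave 0 calls (1262 genes at an unadjusted p under 0.05) and the Young and Aged pair 407. Without the Young library 357 genes were called.

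Cytotoxic granule genes were raised in part. Of 22 tested, 10 were higher and 3 lower, or 11 and 4 without the mast-like barcodes, with a median log2 difference of 0.66. Gzmc, the granzyme C of strongly activated NK and T cells, stood at 8948, 7192, 9908 and 10024 CPM against 95.8, 78.8, 69.2 and 93.6 CPM in CD8-gated barcodes. The 4 NK values lay far above all 4 CD8 values and close to one another, a log2 difference of 6.79 (SE 0.16, adjusted p = 1.5e-12). It was seen in 55.6%, 60.0%, 91.8% and 88.9% of NK-gated barcodes, in 3.39% to 5.42% of CD8-gated ones and in at most 5.88% of non-immune ones. After thinning each barcode to 1000 UMIs the NK shares were 50%, 40%, 75.5% and 66.7%, against 1.04% to 1.73% in CD8-gated barcodes. Gzmc lies on chromosome 14 at 56231441 to 56234656 of the minus strand in GRCm38, beside Gzmb (56258838 to 56262260) and the genes Gzmd, Gzme, Gzmf and Gzmg (56117626 to 56211417). Gzmc to Gzmg are near-copies of one another, so the split of counts among them is uncertain.

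Gzmd stood at 228, 1454, 1839 and 8126 CPM and was higher by 5.85 (SE 0.48), and Gzme at 48.0, 136, 543 and 3588 CPM and was higher by 4.09 (SE 0.49). Gzmg, outside the fixed list, stood at 0, 17, 985 and 6591 CPM (6.88, SE 1.25, adjusted p = 0.00224, and 0.0847 without the Aged library). Unlike Gzmc, these 3 spread widely over the libraries. Of the 80 members that were not mast-like, 26 held Gzmd, 28 Gzme and 7 Gzmg. Of the Gzmg UMIs, 1 barcode held 94.7% in Young and 1 held 99.5% in Aged. Gzmf, at 0, 0, 708 and 1134 CPM, did not pass the test (2.34, adjusted p = 0.212, or 0.0125 without the mast-like barcodes).

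Prf1 stood at 476, 51.0, 748 and 1057 CPM against 91.5, 103, 64.3 and 172 CPM. It was above CD8 in WT, Young and Aged and below it in KO, with a difference of 2.34 (SE 0.44, adjusted p = 0.00293), and the adjusted p was 0.0986 without Young and 0.062 without Aged. Gzma, a granzyme of circulating NK cells, stood at 768, 229.5, 3873 and 4245 CPM against 336, 296, 260.4 and 138 CPM (2.63, SE 0.66, adjusted p = 0.0192). It was also lost without Young (adjusted p = 0.288) and without Aged (0.16), and in KO all of its 27 UMIs lay in 1 barcode. Gzmb, the main cytotoxic granzyme, stood at 624, 553, 2583 and 6687 CPM against 1028, 644, 977 and 2012 CPM. With all members Gzmb was below CD8 in WT and KO and above it in Young and Aged. Without the mast-like barcodes it stood at 907 CPM in WT, still below CD8, and at 664 CPM in KO, above it. Gzmb did not pass (0.64, adjusted p = 0.237, or 0.0451 without the mast-like barcodes). Serpinb9, the granzyme B inhibitor that shields killer cells, was higher by 1.55 (SE 0.16), Cst7 (cystatin F) by 1.13 (SE 0.21) and Serpinb6b by 1.21 (SE 0.20). The call of Cst7 was lost without Young (0.0562).

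Not every killer gene was on the NK side. Gzmk, a granzyme of memory and exhausted CD8+ T cells, had 0 UMIs in all 4 NK sums against 144, 111, 279 and 439 CPM in CD8-gated barcodes, at least 109-fold lower when a floor of 3 UMIs over the 4 NK sums is used. Gzmm was lower (-2.28, SE 0.59), as was Stx11, which acts in granule release (-1.12, SE 0.29). Gzmm was lost without Young and without Aged, and Stx11 without WT, KO or Young. Nkg7, a granule membrane protein of NK and CD8 T cells, did not pass (-0.61, adjusted p = 0.0637). Cma1, a protease of mast cells that was on the granule list, was higher by 4.01 with all members and lower (-5.66) without the mast-like barcodes.

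**Figure D3:**
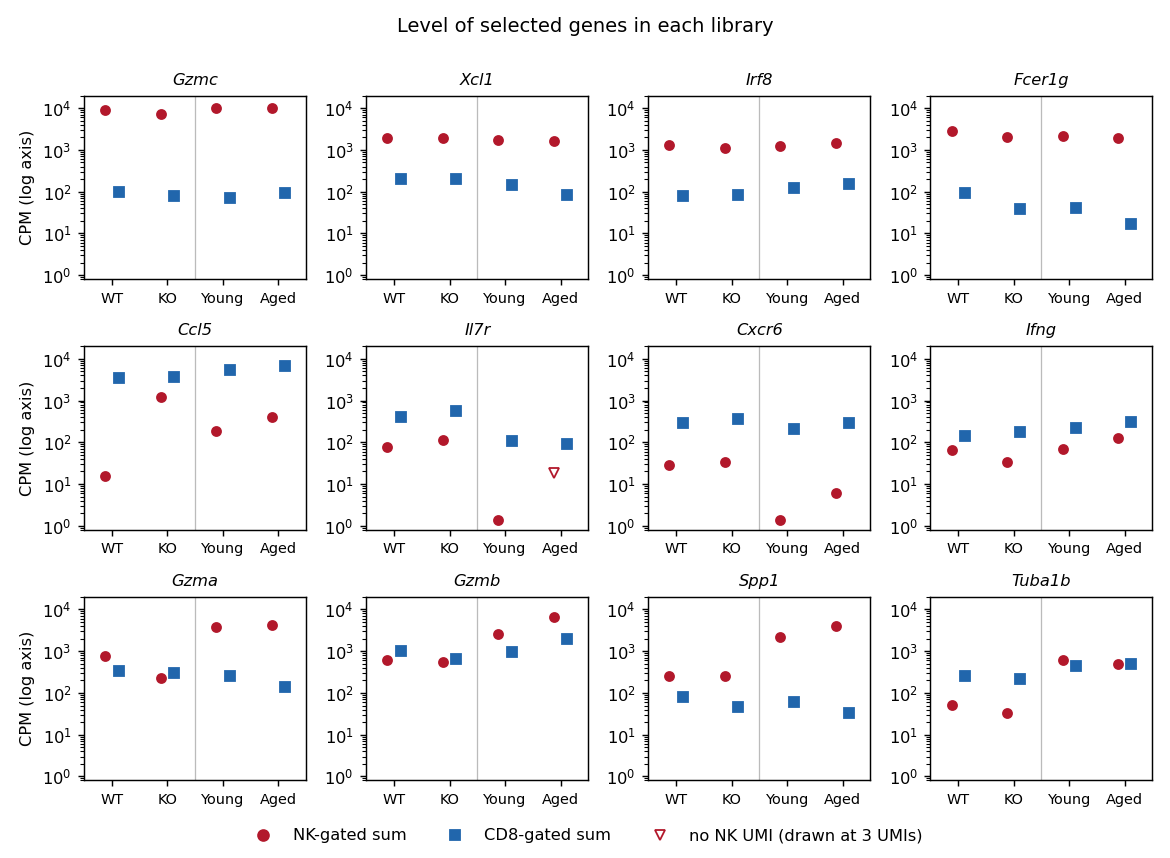
CPM (log axis) of selected genes in the NK-gated and CD8-gated sums of each library, with the KO and WT pair left and the transfer pair right of the grey line. Gzmc runs from 7192 to 10024 CPM in NK sums and from 69.2 to 95.8 CPM in CD8 sums, while Spp1 runs from 255 to 4066 CPM in NK sums. The open triangle marks a library with no NK UMI, drawn at the level of 3 UMIs.

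NK receptor genes were higher more often than lower. Of 23 activating and adaptor receptor genes tested, 12 were higher and 3 lower (median 1.41), or 14 and 3 without the mast-like barcodes. Of 18 inhibitory receptor genes, 7 were higher and 3 lower (median 0.91, or 0.27 without the mast-like barcodes). Of 26 Klr genes in the files besides Klrb1c, 20 were tested, 14 were higher and 0 were lower. Most of them lie in the NK gene complex on chromosome 6, over 1777.6 kb from 128609227 to 130386874 in GRCm38. Klra and Klrc genes are near-copies within their families, so their counts may be split among them. The gate asked for Ncr1 or Klrb1c and for Tyrobp, so the numbers of receptor genes called are not independent of it. A gene nearly absent from CD8 sums could also enter the test through its NK sums.

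Klra8 (Ly49H), the activating receptor for a cytomegalovirus protein, stood at 92.0, 0, 177 and 95.5 CPM against 0.0919, 0, 0.362 and 0 CPM. It was absent from KO and present in the other 3 libraries, with a difference of 9.84 (SE 0.56, adjusted p = 1.76e-07). Klra4 (Ly49D), the other DAP12-coupled Ly49, stood at 244, 0, 128 and 59.7 CPM (6.20, SE 0.57). Of the inhibitory receptors, Klra7 (Ly49G) stood at 124, 0, 399 and 29.9 CPM (6.49, SE 0.68) and Klra1 (Ly49A) at 128, 0, 43.6 and 17.9 CPM (7.0, SE 0.60). Klra3 (Ly49C) was counted in all 4, at 60.0, 51.0, 128 and 47.8 CPM (5.64, SE 0.40), as was Klra9, at 40.0, 42.5, 68.1 and 5.97 CPM (6.53, SE 0.58). In KO, 2 of the 9 members that were not mast-like held a Klra gene, against 7 of 13 in WT, 44 of 49 in Young and 5 of 9 in Aged.

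Among receptors of other families, Fcer1g stood at 2820.1, 2066, 2199.9 and 1952 CPM against 95.3, 37.8, 41.0 and 16.6 CPM (5.86, SE 0.27, adjusted p = 1.01e-08). Klre1 stood at 248, 204, 287 and 179 CPM against 33.7, 50.5, 22.4 and 19.6 CPM (3.05, SE 0.26). Both were above CD8 in every library. Klrb1b, an inhibitory NKR-P1 receptor, was higher by 5.12 (SE 0.28), Klrb1a by 6.40 (SE 0.48) and Klrb1f by 5.38 (SE 0.38). Sh2d1b1, the adaptor EAT-2, was higher by 6.19 (SE 0.49), Cd244a, the receptor 2B4, by 3.43 (SE 0.27), and Fcgr3, which encodes CD16, by 4.11 (SE 0.40). Klrd1 (CD94), which CD8 T cells also carry, was higher by 1.47 (SE 0.18). Its partner Klrc1 (NKG2A) stood at 132, 332, 166 and 454 CPM against 228, 297, 432 and 479 CPM, below CD8 in 3 of 4 libraries, and did not pass (-0.49). Klrk1 (NKG2D) did not pass either (0.55, adjusted p = 0.0611, or 0.0217 without the mast-like barcodes), whereas its adaptor Hcst (DAP10) was lower (-1.17, SE 0.16).

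On the low side, Cd247, the zeta chain shared by the T cell receptor and CD16, stood at 24.0, 0, 65.4 and 5.97 CPM against 123, 117, 180.4 and 171 CPM (-2.32, SE 0.38). Slamf6, a self-binding receptor of T and NK cells, had 0 NK UMIs, at least 12.5-fold lower. Pdcd1, which encodes PD-1, was lower (-4.29, SE 0.41), as were Havcr2, which encodes TIM-3 (-2.01, SE 0.32, and adjusted p = 0.0535 without Young), and Ctla4 (-1.78, SE 0.29). Klrg1, a receptor of mature NK and effector T cells, stood at 8.0, 8.5, 202 and 161 CPM against 9.93, 9.58, 25.3 and 44.3 CPM. It was above CD8 only in Young and Aged (1.97, SE 0.40, adjusted p = 0.00482), and it was not called without either of those libraries.

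**Figure D4:**
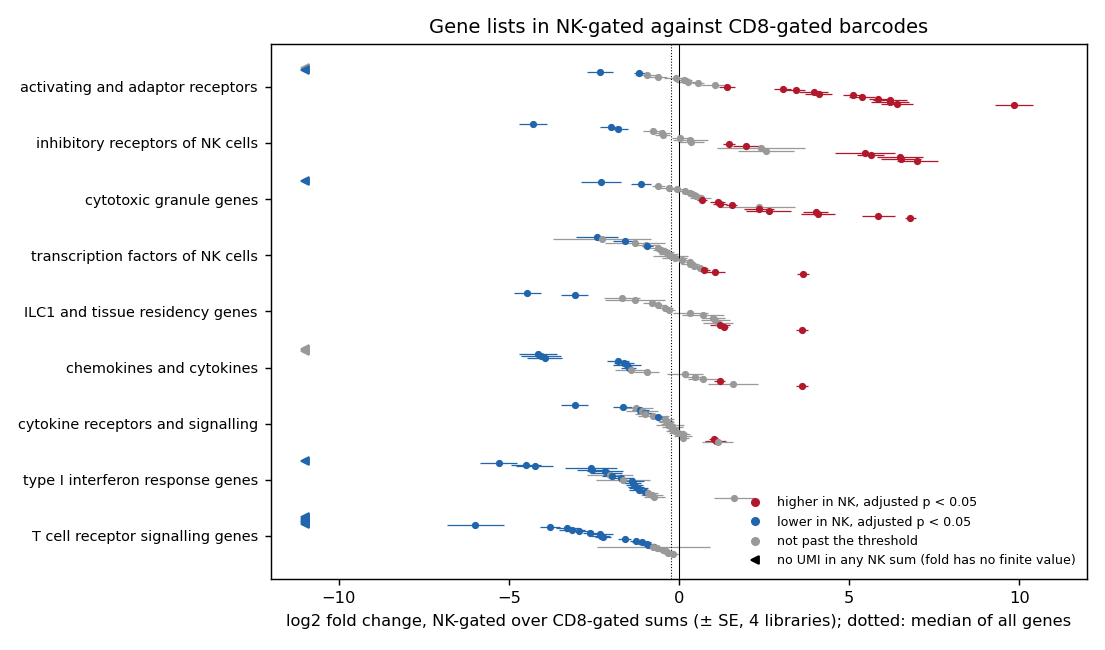
Log2 difference between NK-gated and CD8-gated sums (x axis, points with SE, 4 libraries) for the genes of each list (rows). Receptor lists reach 9.84 (Klra8) on the right, while the T cell receptor and interferon lists lie mostly left of the dotted all-gene median of -0.23; arrowheads mark genes with no NK UMI.

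Most NK transcription factor genes did not pass the test, with 3 higher, 3 lower and 14 not called of 20 tested (median -0.28), or 3 higher and 5 lower without the mast-like barcodes. Irf8 stood at 1280.1, 1131, 1246 and 1481 CPM against 79.6, 85.5, 122 and 151 CPM, above CD8 in every library by 3.64 (SE 0.18, adjusted p = 1.39e-08). Eomes stood at 36.0, 42.5, 119.9 and 155 CPM against 38.8, 34.8, 35.9 and 63.9 CPM (1.06, SE 0.29, adjusted p = 0.033). The groups overlapped for Eomes, and it was not called without Young or without Aged. Tbx21 did not pass (0.62, adjusted p = 0.122). Runx3 was higher (0.74, SE 0.17, adjusted p = 0.013, or 0.144 without Young), at 532, 425, 218 and 185 CPM against 292, 289, 114 and 148 CPM. Ets1 was lower (-0.94, SE 0.16), as were Tox, a factor of NK development and T cell exhaustion (-1.60, SE 0.35), and Prdm1, which encodes Blimp-1 (-2.41, SE 0.63). Tox was lost without Young and without Aged, and Prdm1 without Young and without WT. Runx3 was also lost without WT.

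Genes of ILC1 and tissue residency went both ways, with 3 higher and 2 lower of 16 (median 0.02), or 6 and 4 without the mast-like barcodes. Xcl1 stood at 1908, 1879, 1696 and 1618 CPM against 206, 199.8, 144 and 84.6 CPM (3.61, SE 0.19, adjusted p = 3.42e-08), well apart in every library. Rgs1, a brake on chemokine signalling in resident lymphocytes, was higher by 1.32 (SE 0.14) and Itga1 by 1.21 (SE 0.29), the latter lost without Young (adjusted p = 0.252). Cxcr6, the receptor of the chemokine CXCL16, stood at 28.0, 34.0, 1.36 and 5.97 CPM against 296, 358, 205 and 295 CPM (-4.46, SE 0.40). Il7r, the interleukin 7 receptor, stood at 76.0, 111, 1.36 and 0 CPM against 404, 552, 106 and 89.5 CPM (-3.06, SE 0.40).

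Of 18 genes of conventional and mature NK cells, 7 were higher and 3 lower (median 0.78), or 6 and 5 without the mast-like barcodes. Khdc1a was seen in NK sums of Young and Aged alone, at 58.6 and 95.5 CPM (7.52, SE 0.60). Car2 (carbonic anhydrase) was higher by 5.32 (SE 0.38) and the kinase gene Txk by 2.37 (SE 0.20). Serpinb9b was higher by 2.64 (SE 0.55) but not without Young or without Aged. On the other side, S1pr1, the receptor that guides exit from tissue, stood at 0, 0, 0 and 5.97 CPM against 72.2 to 99.3 CPM (-6.73, SE 0.70). Ly6c2 was lower (-3.36, SE 0.50), and so was Cd27 (-0.94), a costimulatory receptor of less mature NK cells, which was lost when any 1 library was left out.

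Chemokine and cytokine genes were lower more often than higher, with 7 lower and 2 higher of 17 (median -1.48, or -0.95 with genes without an NK UMI at their bound), or 8 and 3 without the mast-like barcodes. Ccl5, a chemokine of activated T and NK cells, stood at 16.0, 1199, 185 and 406 CPM against 3546, 3663, 5413 and 6580.2 CPM (-4.15, SE 0.55, adjusted p = 0.000175). All 4 NK values lay below all 4 CD8 values, and in KO 91.5% of the NK UMIs lay in 1 barcode. Ccl5 was seen in 16.7%, 40.0%, 42.9% and 66.7% of NK-gated barcodes, against 50.9%, 64.7%, 28.2% and 41.3% of non-immune barcodes. In WT and KO the NK share was below that of non-immune barcodes, which stood at 38.8, 25.6, 119 and 218 CPM. Ifng, the gene of interferon gamma, stood at 64.0, 34.0, 68.1 and 125 CPM against 145, 172, 219.5 and 307 CPM (-1.48, SE 0.23, adjusted p = 0.000522). Csf1 (-4.05), Ccl3 (-3.94), Ltb (-1.80), Fasl (-1.62) and Ccl4 (-1.52) were the others lower, the last 3 not without Young, and Ccl4 not without WT or Aged either. Besides Xcl1, Tgfb1, which encodes the cytokine TGF-beta 1, was higher, at 636, 519, 924 and 794 CPM against 258, 295, 355 and 382 CPM (1.20, SE 0.16).

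Of 25 cytokine receptor and signalling genes, 2 were higher and 5 lower (median -0.33). Il2rb, the beta chain through which NK cells take up interleukin 2 and 15 signals, stood at 836, 1241, 1334 and 1343 CPM against 546, 556, 621 and 678 CPM. NK was above CD8 in every library (1.02, SE 0.14). Il12rb1, of the interleukin 12 receptor, was higher by 1.08 (adjusted p = 0.0427), a call lost when any 1 library was left out. Il7r, Il18r1 of the interleukin 18 receptor (-1.65), Stat5b (-1.14), Il21r (-1.0) and Ifngr1 (-0.61) were lower. Without Young Il18r1, Stat5b and Ifngr1 were not called, nor Stat5b and Ifngr1 without WT or Il21r and Ifngr1 without Aged. Ifngr1 also missed the threshold without the mast-like barcodes (0.09). Of 17 chemokine receptor and adhesion genes, 1 was higher, and S1pr1, Cxcr6, Ccr7, the receptor for lymph node homing (-4.20, SE 0.37), and Cxcr3 (-3.16, SE 0.50, and lost without Young) were the 4 lower (median -0.61). Without the mast-like barcodes 2 of the 17 were higher and 7 lower.

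T cell receptor signalling genes were lower almost throughout, with 19 of 25 lower and 0 higher (median -2.30). The gate asked for 0 CD3 UMIs, so this list is not independent of it. Trac, the alpha chain constant gene, stood at 24.0, 25.5, 32.7 and 11.9 CPM against 712, 669, 218 and 216 CPM (-3.79, SE 0.31). Cd6, Themis, Cd5, Bcl11b and Trat1 had 0 NK UMIs, at least 84.3-, 76.4-, 59.3-, 31.4- and 5.55-fold lower, Trat1 not called without Young. Lat (-2.94), Cd28 (-3.28), Cd2 (-2.61) and Lck (-1.28) were lower too, genes for an adaptor, a costimulatory receptor, an adhesion receptor and a kinase. Trbc1 stood out from its list at 476, 536, 116 and 101 CPM against 623, 780.1, 125 and 137 CPM, a difference that did not pass (-0.31, adjusted p = 0.283), while Trbc2 was lower (-2.23). Thy1 was highest of the list and did not pass (-0.18).

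Of 4 gamma-delta receptor genes tested, 2 were higher and 1 lower. Trdv4, a delta chain variable segment, stood at 8.00, 68.0, 83.1 and 59.7 CPM against 0.107 to 0.411 CPM (7.73, SE 0.57). Trdc, the delta constant gene, stood at 8.00, 0, 38.1 and 5.97 CPM against 13.3, 2.24, 0.510 and 0.169 CPM. It was below CD8 in WT and KO and above it in Young and Aged (3.37, SE 0.97, adjusted p = 0.04), lost without Aged, and the sign turned without Young (-0.047). Trgc2, a gamma constant gene, had 0 NK UMIs (at least 9.57-fold lower). Of 3 helper-type ILC genes tested, Kit and Il1rl1, the interleukin 33 receptor, were higher and Rora was not called (-0.74), and without the mast-like barcodes 1 was higher and 1 lower. Kit, the stem cell factor receptor that mast cells and some ILCs carry, stood at 320.0, 128, 74.9 and 107 CPM, or 151 and 116 CPM in WT and KO without the mast-like barcodes, against 40.3, 31.3, 15.3 and 4.93 CPM (2.92, SE 0.33, or 2.50 without them). Il1rl1 stood at 260.0, 25.5, 0 and 0 CPM (2.17, SE 0.61, lost without Aged and turned to -0.21 without WT), and at 0 in all 4 without them.

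Interferon response genes were lower as well, with 17 of 23 lower and 0 higher (median -1.64), or 18 and 1 without the mast-like barcodes. Ifit3, induced by type I interferon, stood at 12.0, 0, 1.36 and 0 CPM against 126, 123, 139 and 124 CPM (-5.30, SE 0.55). Ifi27l2a stood at 44.0, 0, 142 and 848 CPM against 2401, 1957, 3126 and 3200.5 CPM (-4.23, SE 0.54), with 86.6% of the Aged UMIs in 1 barcode. Ifit3b had 0 NK UMIs (at least 13.0-fold lower), and Ifit1 was lower too (-4.48). Irf7, the factor that amplifies the response, was lower (-1.96), as were Isg15 (-1.18) and Bst2 (-0.99). Irf7 and Bst2 were lost without Young, and Isg15 without KO, Young or Aged. Without Young 4 of the 23 were lower, and without Aged 12. Ifi44 stood highest of the list and did not pass (1.63, adjusted p = 0.119, or 0.0157 without the mast-like barcodes).

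Few cell cycle genes passed, with 1 higher (H2az1, 0.66) and 1 lower (Hmgb2, -0.73) of 23 (median -0.35), and 0 and 2 without the mast-like barcodes. Mki67, which marks cycling cells, stood at 8.00, 0, 140.3 and 77.6 CPM against 92.8, 83.5, 129 and 139.5 CPM and did not pass (-1.01). It was seen in 27 of the 80 members, 23 of them in Young. Of 20 immediate early genes, Jun (1.13) and Junb (0.76) were higher and Klf6 (-1.11), Nr4a2 (-0.88) and Ier2 (-0.64) lower (median -0.27), or 2 higher and 4 lower without the mast-like barcodes. Without Young, all of these 7 but Junb were lost. Ier2 was lost when any 1 library or the mast-like barcodes were left out, H2az1 also without WT, Aged or the mast-like barcodes, and Hmgb2 also without WT or KO. Jun in WT stood at 1116 CPM with the mast-like barcodes and at 453 CPM without them.

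Outside the lists, the genes with the largest differences included secreted and signalling proteins. Vegfa, the vascular growth factor, stood at 380.0, 739.6, 183 and 185 CPM against 26.0, 9.87, 10.3 and 6.26 CPM, above CD8 in every library (4.80, SE 0.33). Clnk, an adaptor of immune receptor signalling, stood at 52.0, 68.0, 77.6 and 53.7 CPM (5.39, SE 0.38). Spp1, the secreted phosphoprotein osteopontin, stood at 260.0, 255, 2232 and 4066 CPM against 79.9, 44.9, 59.0 and 32.6 CPM (4.25, SE 0.69, with an adjusted p of 0.0707 without Young). A single barcode held 80.0% of the Spp1 UMIs in KO and 82.4% in Aged. Dixdc1 (6.09), Aoah, an enzyme that inactivates endotoxin (5.14), Slc24a3 (4.77), Atp1b1 (4.49), Cxxc5 (4.47) and Emid1 (4.23) were also among them, with Gzmg and Mcpt1. Mcpt1, a mast cell protease, reversed to -7.16 without the mast-like barcodes (4.13 with them).

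At the other end, Adam19 and Fam169b had 0 NK UMIs (at least 42.2- and 34.6-fold lower). Tnfrsf4, the costimulatory receptor OX40, stood at 0, 0, 1.36 and 0 CPM against 204.5, 227, 74.5 and 218 CPM (-7.35, SE 0.54). Slfn1 (-5.60), Plcg1, the phospholipase below the T cell receptor (-5.13), Sntb1 (-4.38, lost without Young) and Fgb (-7.68) were also lower. H2-Eb1, a class II chain, was lower (-5.52), but stood at 0.99 when CD8-gated barcodes with NK or myeloid transcripts were left out.

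Markers of other cells were read in the same sums. Of 8 mast cell and basophil genes, 6 were tested and all 6 were higher, and their summed level in the NK sums was 9568.4 and 8398.8 CPM in WT and KO against 76.3 and 131.3 CPM in Young and Aged. Without the mast-like barcodes it was 168.6 CPM in WT and 115.9 CPM in KO, with 2 higher and 2 lower of the 4 then tested. Macrophage and monocyte genes summed to 41.8 to 124 CPM in NK and 86.2 to 144 CPM in CD8 sums (0 higher and 4 lower of 8, or 1 and 5 without the mast-like barcodes), with C1qa, C1qb and C1qc at 0 in NK and not called without Young, nor C1qa and C1qc without Aged. Dendritic cell genes summed to 98.1 to 382.5 CPM in NK and 381.5 to 2102.8 CPM in CD8 sums (0 higher and 2 lower of 5, or 1 and 4 without the mast-like barcodes), with Xcr1 at 0. The NK gate capped Lyz2, H2-Aa and H2-Ab1 and the CD8 gate did not. The macrophage, monocyte and dendritic cell lists are therefore not independent of the gates. With CD8-gated barcodes free of NK and myeloid transcripts, 3 macrophage and monocyte genes were tested, 0 of them higher and 0 lower. Neutrophil and red cell genes were at 0 in every NK sum. Fibroblast genes were lower in 4 of 4 tested and epithelial genes in 3 of 4, with Epcam higher (2.02, lost without Young and without Aged). Of the B cell genes Ighm was higher (1.60) and Igkc at 0 (at least 23.5-fold lower), and of the endothelial genes Pecam1, also an adhesion receptor of leukocytes, was higher (2.56). None of the 4 sex-linked transcripts tested passed, and Xist stood at 1140.1, 1309, 0 and 0 CPM in NK and 1049, 1250.2, 0 and 0.0921 CPM in CD8 sums. The pairs thus also differed in a sex-linked transcript, in both gates, which cannot be told apart from kit, host and experiment.

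The within-library difference was then compared between the transfer pair (Young and Aged) and the KO and WT pair. These pairs differ together in kit, host, experiment and the software version of the file headers. At an adjusted p under 0.05, 20 genes were called (0.161%), 8 with a larger difference in the transfer pair and 12 with a smaller one. Without the mast-like barcodes 9 were called, and when any 1 library was left out 0 were (884 at an unadjusted p under 0.05 with all 4). The granzymes Gzma (3.84, SE 0.49), Gzme (2.89, SE 0.41) and Gzmb (2.04, SE 0.22) stood higher over CD8 in the transfer pair, as did Spp1 (4.02, SE 0.51). So did the cell growth and chromatin genes Stmn1 (2.52), Tuba1b (2.63) and H1f5, the last at 0, 0, 285 and 513 CPM with all Aged UMIs in 1 barcode. Of the smaller differences, Alox5ap, Csf2rb, Csf2rb2 and Cd81 rested on mast-like barcodes, as all 4 were at 0 in WT without them.

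The deletion of Bfar is given for CD8+ T cells, and NK-gated barcodes of KO and WT carry no such label. In NK sums Bfar stood at 16.0 (WT) and 42.5 CPM (KO), from 4 and 3 barcodes, and in CD8 sums at 32.1 and 22.4 CPM. It stood at 16.3 and 29.9 CPM in the NK sums of Young and Aged and at 22.1 and 26.0 CPM in CD8. No source used here names the deleted part of the gene, so these tags do not check the label. With 1 library per group no test was made, and intervals of ratios are exact and cover counting error only, for UMIs that were taken as independent.

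Of 2304 genes with at least 20 UMIs over both NK sums, 159 stood at least 2-fold higher in KO (6.9%) and 238 at least 2-fold lower (10.3%). The KO sum held 117636 UMIs against 249989 in WT, so genes near this minimum could pass mostly through WT. The counts in the 2 directions are therefore not on equal terms. At the low end, 14 genes with at least 30 WT UMIs tied at 0 in KO. Of these, 9 lay in mast-like WT barcodes alone, led by the chemokine genes Ccl7 (774 UMIs) and Ccl2 (294 UMIs), and 2 more, Il13 and Syngr1, lay mostly there (41 of 44 and 36 of 38 UMIs). The other 3 were receptor genes with 0 UMIs in mast-like barcodes. The activating receptor Klra4 was at 0 in KO against 244 CPM in WT (61 UMIs in 4 barcodes), and the inhibitory receptor Klra7 at 0 against 124 CPM (31 UMIs in 3 barcodes). The other was Klra1 (32 WT UMIs), and Klra8, with 23 WT UMIs, was at 0 in KO too. Of the 5 highest ratios, Mt2, Ctsg and Penk lay in the 1 mast-like KO barcode, and Ccl1, a chemokine of activated lymphocytes, stood at 255 and 4.0 CPM, or 63.2 and 0 CPM without the mast-like barcodes. Ccl5 stood at 1199 and 16.0 CPM, a ratio of 74.9 (28.6 to 279) that rested on the 1 KO barcode with 91.5% of the UMIs.

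Effector genes also differed between the KO and WT sums. The KO over WT ratio of Prf1 was 0.107 (0.0386 to 0.240), from 51.0 against 476 CPM, and 0.0914 without the mast-like barcodes. Of the 119 WT UMIs of Prf1, 1 barcode held 50 and another 43, so the ratio rests largely on these. Prf1 was seen in 8 of 13 WT and 4 of 9 KO members that were not mast-like. Gzma had a ratio of 0.299 (0.192 to 0.449), from 1 KO and 3 WT barcodes. Gzmd had a ratio of 6.38 (4.70 to 8.76), with 89.5% of the KO UMIs in 1 barcode, while Gzmc stood at 0.804 (0.742 to 0.870) and Gzmb at 0.886 (0.652 to 1.19). With all members, the interval of Gzmb includes no difference. Klrc1 stood at 2.51 (1.54 to 4.12) and Klrd1 at 1.01 (0.787 to 1.28). The mast-like barcodes held 77944 of the 249989 WT and 22750 of the 117636 KO UMIs. Without them the ratios were 0.255 for Gzma, 5.44 for Gzmd, 0.686 for Gzmc and 0.732 for Gzmb. Klrc1 was then at 2.14 and Klrd1 at 0.860. Isg15 stood at 0.216 (0.0836 to 0.468), or 0.403 without the mast-like barcodes. Jun stood at 0.373, and at 1.05 without them.

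Aged and Young differ in the donor age of the transferred CD8+ T cells, while the hosts carry the same age label. Of 5055 genes with at least 20 UMIs over both NK sums, 148 stood at least 2-fold higher in Aged (2.93%) and 722 at least 2-fold lower (14.3%). The Aged sum held 9 barcodes and 167496 UMIs against 49 and 734140 in Young. The minimum of 20 UMIs counts both sums together, so a gene near it could pass through Young alone. The counts of higher and lower genes thus depend on this filter and do not weigh the directions alike. Among the lowest were Cxcl10, Hibadh and Slc9a9, with 0 UMIs in Aged and 34, 32 and 34 in Young, and the inhibitory receptors Klra7 (29.9 against 399 CPM, ratio 0.0748, 0.0241 to 0.176) and Klra9 (0.0877). Klra7 was seen in 2 Aged and 32 Young barcodes. Among genes with at least 30 UMIs, the highest were Cd74, the class II invariant chain (8.77), Gzmg (6.69), Gzme (6.6, 5.81 to 7.51), Basp1 (6.41) and Klf2, a factor of quiescence and recirculation (6.21, 4.23 to 9.18). In Aged, 1 barcode held 67.6% of the Klf2 UMIs, 70.4% of those of Gzme and 99.5% of those of Gzmg.

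The granzymes of chromosome 14 differed among themselves between Aged and Young. Gzmc was at a ratio of 1.01 (0.959 to 1.07), Gzmb at 2.59 (2.40 to 2.79), Gzmd at 4.42 (4.09 to 4.77) and Gzmf at 1.60 (1.35 to 1.90). Prf1 stood at 1.41 (1.19 to 1.68) and Gzma at 1.10 (1.01 to 1.19). In Aged, 1 barcode held 46.4% of the Gzmb UMIs, 66.2% of those of Gzmd, 63.8% of those of Prf1 and 88.9% of those of Gzmf, and 1 Young barcode held 89.0% of those of Gzmf. Without the Aged barcode with most UMIs of the gene, Gzmb was at 1.77, Gzmd at 1.91 and Gzme at 2.50. Prf1 then stood at 0.654, Gzma at 0.824, Gzmc at 0.761 and Gzmf at 0.226, on the Young side of 1. Of the receptors, Klrc1 stood at 2.73 (2.02 to 3.67), whereas Klra4 (0.466), Klra8 (0.539), Klra3 (0.373), Klrd1 (0.633) and Klre1 (0.623) stood lower, each with an interval below 1. In Aged, Klra4 was seen in 2 barcodes, Klra8 in 3, Klra3 in 2 and Klre1 in 6, against 17, 29, 10 and 45 in Young. The intervals take UMIs as independent and do not cover the spread between barcodes. Il2ra, the interleukin 2 receptor alpha chain, stood at 11.3 (4.49 to 31.9), from 18 Aged and 7 Young UMIs, and Ly6c2 at 0.122 (0.0247 to 0.365). Mki67 stood at 0.553 (0.285 to 0.988). Ifng stood at 1.84 (1.05 to 3.12) and Tbx21 at 0.868 (0.516 to 1.40).

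**Figure D5:**
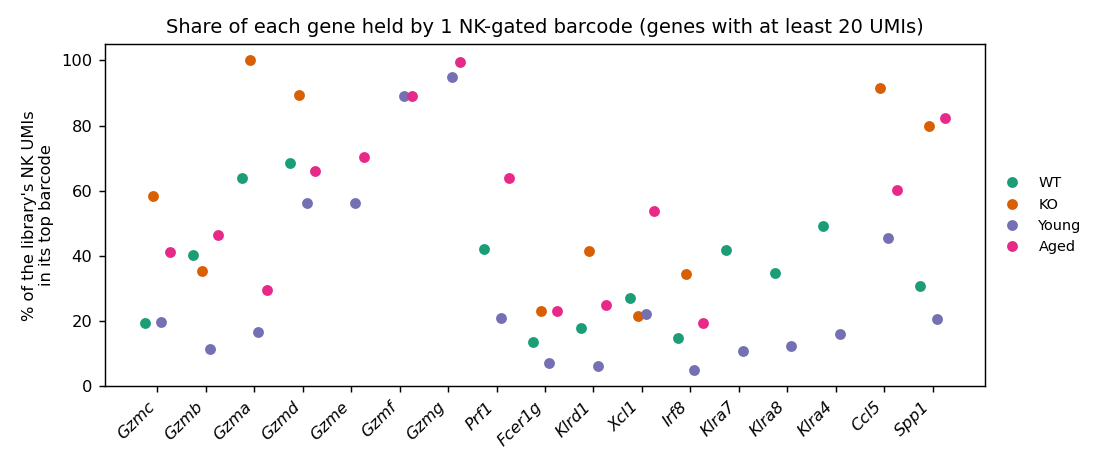
Percent of a gene's NK UMIs held by the barcode with most of them (y axis) for each library (colours), for genes with at least 20 UMIs there (x axis). Gzmg reaches 99.5% in Aged, while Gzmc stays between 19.4% and 58.4%.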

How the data were processed

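The authors deposited, per sample, whole-number counts of UMIs per gene and cell barcode for 31253 genes. Per the file headers, Cell Ranger wrote them. These headers and the submitters' processing notes (Cell Ranger 6.0.0, Seurat 3.2.3, mm10) name different versions, so the version is not settled. Whether intronic reads were counted is not stated there.

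The gate and its members, the 25 gene lists and the tests were chosen with earlier results of these data known. Raw UMIs were summed per library and gate. Sums were fitted with edgeR 4.0.16 (R 4.3.3): TMM scaling, filterByExpr, quasi-likelihood test with the library as a block, Benjamini-Hochberg adjustment over all genes tested. Both sums of a library come from the same mice, which pairs them. The pairing therefore comes from the design and all main fits carry it. DESeq2 1.42.0 and limma 3.58.1 served as alternatives. On simulated counts with 100 genes raised and 100 lowered 4-fold among 12471, the NK against CD8 step recovered 90 and 82. Of its 181 calls, 9 were unchanged genes. The changed genes were drawn from those above a minimum of expected NK UMIs, and all genes were given the same dispersion. These rates therefore do not describe genes with few UMIs or genes held mostly by a single barcode. KO against WT and Aged against Young were given as ratios with exact 95% intervals and a 2-fold rule. Shares were given as counted and after thinning each barcode to 1000 UMIs. Barcodes were neither clustered nor passed through a doublet caller, so doublets may remain. Positions come from the GENCODE annotation of GRCm38.

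Genes were named by rule: the gate genes, the highest and lowest member of each list and members with a known role. Outside the lists they were the 12 highest and 8 lowest called genes, for each pair of libraries the 5 highest and 5 lowest ratios (at least 30 UMIs, ties at 0 counted together), and for the difference between pairs the 5 largest called in each direction. Some genes that this rule names are not reported here. The mast-like line, the fit without those barcodes, the 5000-UMI minimum, the share without members with T cell genes, the values without single Aged barcodes, limma-voom and the legacy quasi-likelihood setting were added after the data were seen.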

Additional observations from a re-analysis of the deposited data

Results flagged for a closer look

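The following genes had a difference between NK-gated and CD8-gated barcodes that was itself unlike in the transfer pair and in the KO and WT pair, by edgeR's quasi-likelihood test of that difference. The pairs differ together in kit, host, experiment, sex-linked transcripts and the software version of the file headers, and these cannot be told apart. Each call was lost when any 1 library was left out.

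The difference was larger in the transfer pair for Gzma (adjusted p = 0.0149, log2 3.84), Gzmb (adjusted p = 0.00572, 2.04), Gzme (adjusted p = 0.0197, 2.89) and Spp1 (adjusted p = 0.0149, 4.02). It was also larger for Trdc (adjusted p = 0.0123, 6.82), H1f5 (adjusted p = 0.00572), Stmn1 (adjusted p = 0.016, 2.52) and Tuba1b (adjusted p = 0.016, 2.63). Without the mast-like barcodes these 8 were called again, with adjusted p between 0.0079 and 0.0099. Trdc rested on few UMIs, 28 in Young and 1 in Aged. It was seen in 2 WT, 0 KO, 18 Young and 1 Aged members that were not mast-like. All Aged UMIs of H1f5 lay in 1 barcode. Stmn1, which encodes a microtubule regulator, stood at 48.0, 59.5, 425 and 322 CPM in NK and 240.4, 224, 301 and 268 CPM in CD8 sums. Tuba1b, a tubulin, stood at 52.0, 34.0, 606 and 489.6 CPM in NK and 262, 212, 447 and 488 CPM in CD8 sums.

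The difference was smaller in the transfer pair for Mcpt1 (adjusted p = 0.00572), Alox5ap (adjusted p = 0.0125), Csf2rb (adjusted p = 0.00572), Csf2rb2 (adjusted p = 0.0186), Cd81 (adjusted p = 0.0316) and Srgn (adjusted p = 0.0316, log2 -1.19). Alox5ap stood at 528, 51.0, 0 and 0 CPM in NK sums and Csf2rb at 144, 0, 0 and 0 CPM. Srgn, the granule proteoglycan serglycin, stood at 4004, 4846, 1888 and 1904 CPM, or 2209 and 2234 CPM in WT and KO without the mast-like barcodes. The difference for Srgn was then 0.12 and not called.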

How the results depend on the processing

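The fit of NK-gated against CD8-gated barcodes called 1151 genes. Separate fits called 436 with no replicate block, 381 with CD8 sums thinned to NK depth (2896 genes tested), 0 in the KO and WT pair alone and 407 in the Aged and Young pair alone. Leaving out 1 library gave 357 to 1043 calls. The other alternatives gave 840 to 1357. DESeq2 called 464 genes higher and 376 lower, limma-voom 934 and 378. Of 133 named and called genes, 126 kept direction and call without the mast-like barcodes, 116 under DESeq2, 89 without Young, 110 without Aged and 80 with no replicate block. The all-gene median was -0.14 with size factors and -0.28 with total UMIs.

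The 20 calls for the difference between pairs became 173 with the legacy quasi-likelihood setting, 39 with DESeq2 and 9 without the mast-like barcodes, and 0 to 0 with 1 library left out. The cause was not tested. Signs turned for Cma1 (-5.66), Mcpt1 (-7.16) and Cpa3 (-4.60) without the mast-like barcodes. They turned to -5.36, -6.86 and -4.29 when 2 UMIs of Ncr1 with Klrb1c and of Tyrobp were needed. That gate removes the mast-like barcodes and some others, and kept 11, 7, 47 and 9 barcodes. Il1rl1, with 0 NK UMIs in these fits, turned to -10.82 and -10.64, to -8.86 in the Aged and Young pair alone and to -0.21 without WT (leaving out 1 library gave -0.21 to 2.68). H2-Eb1 turned to 0.99 with CD8-gated barcodes free of NK and myeloid transcripts. Trdc turned to -0.047 without Young (-0.047 to 5.04 over the libraries left out) and, in the KO and WT pair alone, to -0.73, with Klrg1 at -0.19 and Serpinb9b at -0.56. Srgn turned to 0.12 for the difference between pairs without the mast-like barcodes.

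The count of 397 genes past 2-fold between KO and WT became 249 without the mast-like barcodes, 233 with the 2-UMI gate, 100 with at least 50 UMIs, 5569 with at least 1 UMI and 887 at 1.5-fold. The count of 870 between Aged and Young became 201, 5266 and 1798 under the last 3. The Young share moved to 0.304% with no Cd8a, Cd8b1 or Trac UMI allowed in the NK gate and to 1.08% with at least 5000 UMIs per barcode, both outside its interval. The other 3 shares kept within their intervals in the alternatives run. NK sums of 117636 to 734140 UMIs from 9 to 49 barcodes limit all values, and 3 UMIs equal 4.09 to 25.5 CPM.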
